A study of Mus musculus with 8 samples.

Results

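Sirtuins are enzymes that remove acetyl and other acyl groups from lysines of proteins and use up the coenzyme NAD in doing so. The mouse has 7 of them, Sirt1 to Sirt7, and all 7 symbols were taken by name from a table of 21049 gene symbols. They are grouped here by where the protein is mainly found: Sirt1, Sirt6 and Sirt7 in the nucleus (3 genes), Sirt2 in the cytosol (1 gene) and Sirt3, Sirt4 and Sirt5 in the mitochondria (3 genes). Because NAD is their substrate, sirtuin activity is tied to the fuel state of the cell, and ethanol oxidation in hepatocytes converts NAD to NADH. Sirt1 acts on transcription factors and coactivators of fasting, fat burning and inflammation, Sirt3 is the main deacetylase of the mitochondrial matrix, and Sirt7 works in the nucleolus on ribosomal RNA transcription. Transcript levels, which are what was measured, do not report enzyme activity.

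RNA was sequenced from 4 control samples given saline and 4 samples given alcohol. The design text names C57BL/6, an inbred mouse strain, and an alcohol-fed group, and the labels give a WT genotype, liver tissue, the mouse hepatocyte line AML12 and the same batch label for all 8. Tissue and cell line are different materials, and the labels do not settle which was sequenced. The sources used here give neither the dose and duration of alcohol nor the age and sex of the animals. They also do not say whether the samples are separate animals, and p-values then cover only how far these samples vary, which may be technical. The title of the series names the RNAs H19 and miR-22 with Sirt1, and the comparison of the groups asks what alcohol changes. Values are FPKM, fragments counted on a transcript divided by its length and by the library's total, and library totals recovered from them were 33872595 to 34789814 reads in controls and 37132631 to 38407511 reads with alcohol.

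Transcripts of all 5 hepatocyte markers were abundant, with sums of 59782 to 68428 FPKM (control) and 52958 to 63048 FPKM (alcohol). The summed sinusoidal endothelial markers (5 of 5 reached a mean of 1 FPKM) were at 10.9 to 17.3 FPKM (control) and 51.5 to 60.5 FPKM (alcohol), and the stellate cell markers (4 of 5 reached it) at 34.9 to 65.0 and 96.9 to 136 FPKM. Kupffer cell markers overlapped between the groups, at 16.2 to 61.7 and 19.6 to 38.8 FPKM, and no listed marker was at 0 in every sample. Red blood cell markers stood at 179 to 362 and 122 to 196 FPKM, also with overlap. Neutrophil markers spanned 2.75 to 4.797 FPKM in controls and a wider 1.56 to 35.2 FPKM in the alcohol group. B cell markers were low throughout, at 1.52 to 2.44 (control) and 0.150 to 0.562 FPKM (alcohol). The part of these cell types in the sirtuin values was not tested, and in bulk RNA fewer cells of a type and less RNA per cell cannot be told apart. Alcohol replicates 2 and 4 were more alike than any other pair within a group (chi-square per gene of 10.1, next lowest 56.6), so results are also given without each of them.

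The study's title ties Sirt1 to miR-22, a microRNA that pairs with messenger RNAs through its seed, bases 2 to 8 (capitals). The seed is shown with the place in the Sirt1 transcript that it would pair with, because Sirt1 was the only sirtuin with such a place. Both are written 5′ to 3′, the first from RefSeq and the second from GENCODE M21 transcripts on GRCm38.
mmu-miR-22-3p: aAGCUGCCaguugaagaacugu
Sirt1 site: caaaacttgtGGCAGCTaacttttt
Capitals in the Sirt1 site mark GGCAGCT, the reverse complement of the seed, at chr10:63320155-63320161 (minus strand). It begins at base 475 of a 3′ untranslated region of 1631 bases and is followed by an A, which makes the match one base longer in the usual classification of sites. No GGCAGCT was found in the longest annotated 3′ untranslated regions of the other 6 sirtuins, which are 391 to 626 bases long. Among 3147 genes with such a region of about the length of Sirt1's, 16.6% held the same 7 letters, and among those of about the length of Sirt6's, 7.97%. A match of letters is a description of the transcript and not a measured interaction. The mature miR-22 was not measured by these libraries.

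Among the 7 sirtuins, Sirt1 rose and Sirt7 fell with alcohol, both nuclear members, and the other 5 did not pass the test on FPKM as deposited. The test was limma on log2(FPKM + 1) over the 9228 genes whose mean reached 1 FPKM, at a Benjamini-Hochberg adjusted p under 0.05. It called 57.2% of those genes, 44.2% higher and 13.0% lower, so 2 called among the 6 tested sirtuins is a smaller share than among all tested genes. Sirt6 lay under the minimum and was fitted with all 21049 listed genes, of which 30.6% were called and 6.39% were called lower. The median log2 change of all tested genes was 0.24, and Sirt1 was the only sirtuin above it.

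**Figure D1:**
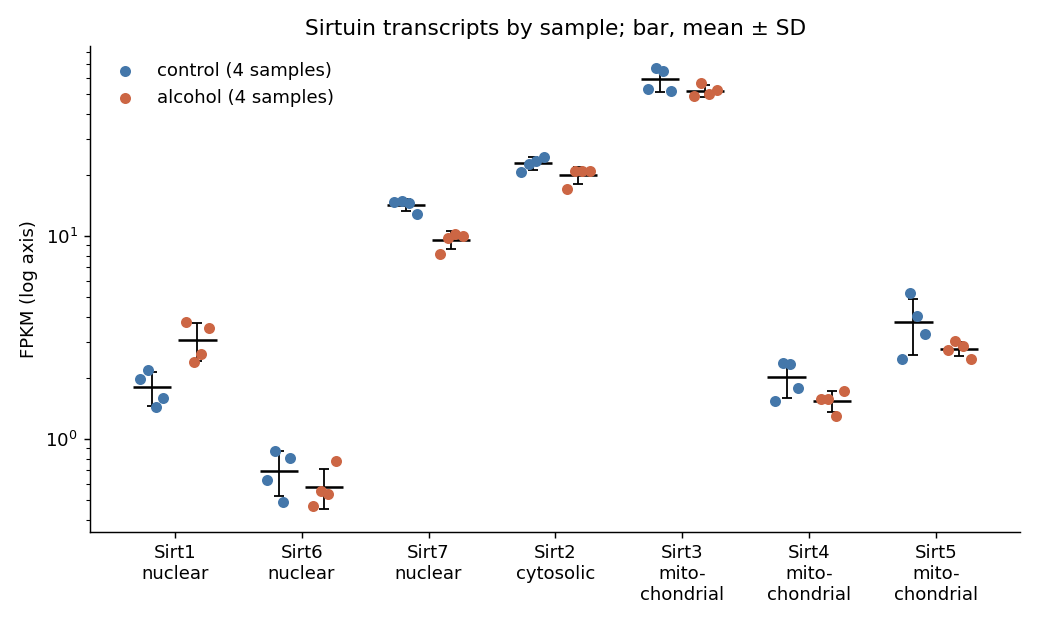
FPKM of each sirtuin on a log axis in 4 control (blue) and 4 alcohol (orange) samples, with the mean and SD of each group in black and the genes ordered by cell compartment. The alcohol points lie above every control point for Sirt1 and below every control point for Sirt7, and the groups overlap for the other 5.

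Sirt1 deacetylates histones and regulators such as Ppargc1a, Foxo1 and Trp53. It was read at 1.98, 2.17, 1.44 and 1.59 FPKM in control replicates 1 to 4 and at 3.77, 2.39, 2.63 and 3.51 FPKM in alcohol replicates 1 to 4. Every alcohol sample lay above every control, and alcohol replicates 1 and 4 were the highest. The means were 1.80 ± 0.340 and 3.07 ± 0.666 FPKM (SD, n = 4 per group), a ratio of 1.71. On the log2(FPKM + 1) scale Sirt1 was higher by 0.54 ± 0.14 (SE; 95% interval 0.24 to 0.83; limma adjusted p = 0.00630). The exact 2-sided permutation p was 0.0286, the smallest that 4 samples against 4 allow. Sirt1 rested on 195 to 564 reads per library. Without each library in turn its limma adjusted p stayed between 0.00435 and 0.0225. The call was lost under 3 other scalings, with log2 changes of 0.30 (median of ratios, limma adjusted p = 0.0598), 0.27 (upper quartile, limma adjusted p = 0.0794) and 0.21 (quantile, limma adjusted p = 0.166).

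Sirt7, which supports transcription of ribosomal RNA genes by RNA polymerase I, had the largest fall in the family. Its controls were 14.7, 14.9, 14.5 and 12.8 FPKM and its alcohol samples 8.12, 9.81, 10.2 and 10.02 FPKM. The groups did not overlap, and alcohol replicate 1 was the lowest. The means were 14.3 ± 0.955 and 9.55 ± 0.972 FPKM (SD, n = 4 per group), a ratio of 0.670. Its log2 change was -0.53 ± 0.10 (SE; 95% interval -0.76 to -0.31; limma adjusted p = 0.00126), and the exact 2-sided permutation p was 0.0286. Of all tested genes, 7.59% had a lower log2 change than Sirt7. The groups of Sirt1 and Sirt7 were the only ones in the family without overlap. That is 2 of 7 sirtuins, where 50.2% of all tested genes had groups without overlap (39.5% with alcohol above, 10.7% with alcohol below). Sirt6 is among the 7 but was not among the tested genes.

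Sirt6, a nuclear deacetylase of histone H3 linked to genome stability and glucose metabolism, was the least abundant member. Control values were 0.630, 0.869, 0.487 and 0.807 FPKM, and alcohol values 0.470, 0.552, 0.534 and 0.775 FPKM. The groups overlapped over most of their range. Sirt6 had a log2 change of -0.10 ± 0.09 (SE; 95% interval -0.31 to 0.11; limma adjusted p = 0.481 over all listed genes). Only 47 to 83 reads per library lay behind it, so counting error alone was 10.98% to 14.6% of a value, against a replicate spread of 24.8% (control) and 22.8% (alcohol) of the mean.

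Sirt2, a mainly cytosolic deacetylase known for acting on tubulin, was the second most abundant sirtuin. Controls stood at 20.6, 22.5, 23.3 and 24.5 FPKM, and alcohol samples at 16.9, 20.91, 20.95 and 20.95 FPKM. Alcohol replicates 2, 3 and 4 lay almost at the same level, inside the control range, and replicate 1 lay below all controls. Sirt2 had a log2 change of -0.18 ± 0.10 (SE; 95% interval -0.41 to 0.05; limma adjusted p = 0.153).

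The mitochondrial sirtuins all had lower means with alcohol, but none passed the test on FPKM as deposited. Sirt3, which deacetylates enzymes of fat oxidation, the citric acid cycle and antioxidant defence, stood at 52.9, 67.1, 64.6 and 51.6 FPKM in controls and at 48.7, 56.5, 50.1 and 52.4 FPKM with alcohol. Its control samples fell into a higher pair, replicates 2 and 3, and a lower pair that overlapped the alcohol samples. The change in Sirt3 was -0.17 ± 0.12 on the log2 scale (SE; 95% interval -0.43 to 0.08; limma adjusted p = 0.216).

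Sirt4, an inhibitor of glutamate dehydrogenase with ADP-ribosyl transferase and lipoamidase activity, stood at 1.54, 2.37, 2.35 and 1.78 FPKM in controls and at 1.57, 1.58, 1.29 and 1.72 FPKM with alcohol. Control replicates 2 and 3 were again the high ones. Its log2 change was -0.24 ± 0.11 (SE; 95% interval -0.49 to 0.02; limma adjusted p = 0.0992). Sirt5, which removes succinyl, malonyl and glutaryl groups from mitochondrial enzymes, stood at 2.47, 5.21, 4.05 and 3.28 FPKM in controls and at 2.75, 3.03, 2.87 and 2.48 FPKM with alcohol. Here control replicate 1 was the lowest of all 8 samples, and the alcohol samples lay within a narrow band. For Sirt5 the log2 change was -0.30 ± 0.16 (SE; 95% interval -0.65 to 0.05; limma adjusted p = 0.127). Control replicate 1 decided whether either was called: without it Sirt4 passed at -0.31 (limma adjusted p = 0.0285) and Sirt5 at -0.44 (limma adjusted p = 0.01497).

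The order of the levels in FPKM, which is per length, was led by Sirt3, Sirt2 and Sirt7 in both groups. In controls it went on with Sirt5 (3.75 ± 1.16 FPKM), Sirt4 (2.01 ± 0.415 FPKM), Sirt1 (1.80 ± 0.340 FPKM) and Sirt6 (0.698 ± 0.173 FPKM). With alcohol Sirt1 (3.07 ± 0.666 FPKM) came next after Sirt7, before Sirt5 (2.78 ± 0.231 FPKM), Sirt4 (1.54 ± 0.180 FPKM) and Sirt6 (0.582 ± 0.133 FPKM). Sirt4 and Sirt1 overlapped in controls, and Sirt1 and Sirt5 overlapped with alcohol. All other neighbours in the order were apart in all samples of the group. The order rests on the lengths behind the deposited FPKM, which differ from the exon lengths of GENCODE M21: 1601 against 5973 bases for Sirt3, 3425 against 2398 for Sirt4 and 3580 against 6093 for Sirt5. Other lengths would change the levels of one gene against another, but not a gene's ratio between groups. Sirt3 led with 59.1 ± 7.92 FPKM in controls and 51.9 ± 3.41 FPKM with alcohol, before Sirt2 with 22.7 ± 1.62 and 19.9 ± 1.999 FPKM.

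**Figure D2:**
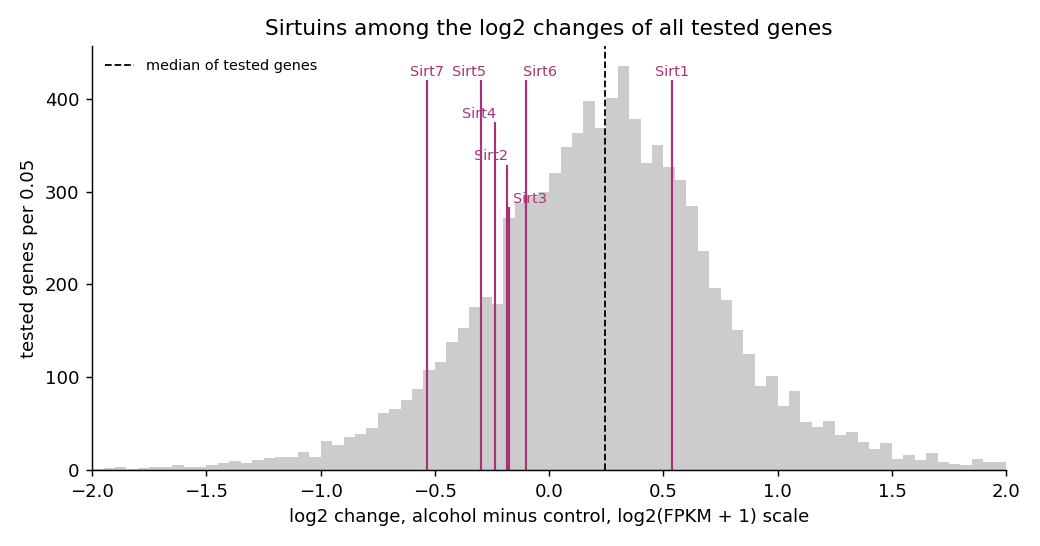
Histogram of the log2 change (alcohol minus control, log2(FPKM + 1) scale) of the 9228 tested genes in steps of 0.05, with a line for each sirtuin and a dashed line at the median of 0.24; Sirt6 was fitted with all listed genes, and 126 genes beyond -2 or 2 are not drawn. Sirt1 lies right of the median and the other 6 lie left of it, with Sirt7 farthest.

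By compartment, the summed FPKM of the nuclear sirtuins was 17.3, 17.9, 16.5 and 15.2 in controls and 12.4, 12.7, 13.4 and 14.3 with alcohol, without overlap. Sirt7, the most abundant of the 3, makes up most of that sum. The mitochondrial sums overlapped, with means of 64.8 ± 9.37 (control) and 56.3 ± 3.56 FPKM (alcohol; SD, n = 4 per group). The median log2 change was -0.10 for the nuclear members, -0.18 for the cytosolic one and -0.24 for the mitochondrial members, against 0.24 for all tested genes. The nuclear median is that of Sirt6, which lies between a rise of Sirt1 and a fall of Sirt7 and was not among the tested genes. The median of the 2 tested nuclear members was 0.0009. A voom fit in limma on the recovered reads gave another order, with -0.25 (nuclear), -0.19 (cytosolic) and -0.37 (mitochondrial).

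How these changes read depends on the scaling between samples. FPKM divides each library by its own total, and the median of all tested genes then lay at 0.24. Median-of-ratios scaling, upper-quartile scaling and quantile normalization put that median at -0.03, -0.06 and -0.001. With median-of-ratios scaling 5 sirtuins were lower (Sirt2, Sirt3, Sirt4, Sirt5 and Sirt7) and none was higher, where 28.3% of all tested genes were lower and 23.5% higher. Upper-quartile scaling gave the same 5 as lower (30.0% of tested genes lower, 21.9% higher). Quantile normalization also gave 5, with Sirt6 in place of Sirt3 (24.7% of tested genes lower, 24.6% higher). Sirt6 was again fitted with all listed genes, so these shares are not its background. Its limma adjusted p was 0.0493, just inside the threshold. The split of all calls moved with it, from 77.2% higher on FPKM as deposited to 45.3%, 42.2% and 49.9% higher. On the TPM scale, which divides by the summed FPKM, Sirt1 (0.74) and Sirt7 (-0.42) alone were called, with 52.7% of tested genes higher and 8.82% lower, so that 85.7% of calls were higher. Size factors from the tested genes alone gave Sirt1 higher and 5 sirtuins lower (25.9% of tested genes higher, 26.5% lower). Scaling to the reads outside the 100 most abundant genes gave Sirt1 higher and Sirt2, Sirt4 and Sirt7 lower (36.3% higher, 17.8% lower). A voom fit in limma on the recovered reads called Sirt1 and Sirt7 alone among the sirtuins (44.3% higher, 12.9% lower).

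Sirt7 was called lower under all 7 scalings compared, with log2 changes of -0.88 to -0.42 and limma adjusted p-values up to 0.00963. Sirt1 kept a positive log2 change under all 7, from 0.21 to 0.74, but was called under 4 of them. Where the size factors came from the tested genes alone its limma adjusted p was 0.0497, just inside the threshold. Relative to the median of all tested genes, Sirt1 stood 0.21 to 0.35 higher and Sirt7 0.78 to 0.82 lower whichever scaling was used. The same difference from the median was -0.48 to -0.36 for Sirt2, -0.48 to -0.16 for Sirt3, -0.57 to -0.42 for Sirt4, -0.62 to -0.52 for Sirt5 and -0.46 to -0.18 for Sirt6.

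**Figure D3:**
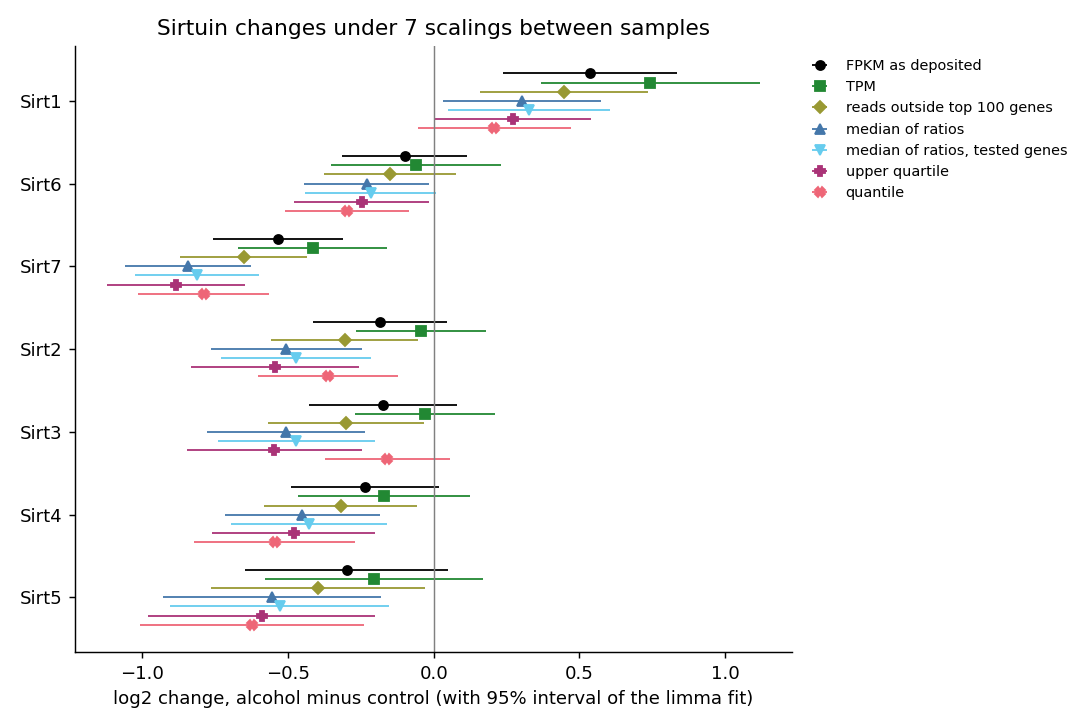
Log2 change of each sirtuin (alcohol minus control) with its 95% interval under 7 scalings between samples, 1 symbol per scaling. Sirt7 lies left of 0 with its whole interval under every scaling, Sirt1 stays right of 0 as a point estimate but its interval reaches 0 with quantile normalization, and Sirt2 to Sirt5 move from intervals that include 0 (FPKM as deposited, TPM) to intervals below 0 (median of ratios, upper quartile).

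A ratio of 2 FPKM values within a library is not changed by any scaling that multiplies the library by 1 factor, which holds for those above other than quantile normalization. The ratio of Sirt1 to Sirt7 was 0.134, 0.146, 0.0989 and 0.124 in controls and 0.464, 0.244, 0.257 and 0.350 with alcohol. Every alcohol sample lay above every control, and the difference of the mean log2 ratios was 1.35. Of the 21 pairs of sirtuins, 7 had ratios without overlap between the groups, where 46.5% of all pairs of tested genes did. The 21 include pairs with Sirt6, which was not among the tested genes. Sirt1 was in 5 of the 7: its ratio to Sirt2, Sirt3, Sirt4, Sirt6 and Sirt7 was higher with alcohol in every sample, and the ratio to Sirt5 overlapped (0.800 in control replicate 1 against 0.788 in alcohol replicate 2). Sirt7 was also low against Sirt2 and Sirt3. The ratio of Sirt2 to Sirt7 went from 1.61 ± 0.218 to 2.09 ± 0.0355 and that of Sirt3 to Sirt7 from 4.14 ± 0.422 to 5.47 ± 0.505 (SD, n = 4 per group).

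Set against every other tested gene in the same way, Sirt1 had a ratio that was higher with alcohol without overlap for 30.8% of genes and lower for 4.58%. Sirt7 had a ratio that was lower for 72.9% of genes and higher for 2.04%. For Sirt2, Sirt3 and Sirt4 the ratio was lower for 44.4%, 42.1% and 42.6% of genes, for Sirt5 for 31.6% and for Sirt6 for 25.5%. It was higher for 5.67% (Sirt2), 6.56% (Sirt3), 2.89% (Sirt4), 2.04% (Sirt5) and 2.59% (Sirt6). For comparison, 46.5% of all pairs of tested genes, which leave out Sirt6, had ratios without overlap, counting either direction.

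**Figure D4:**
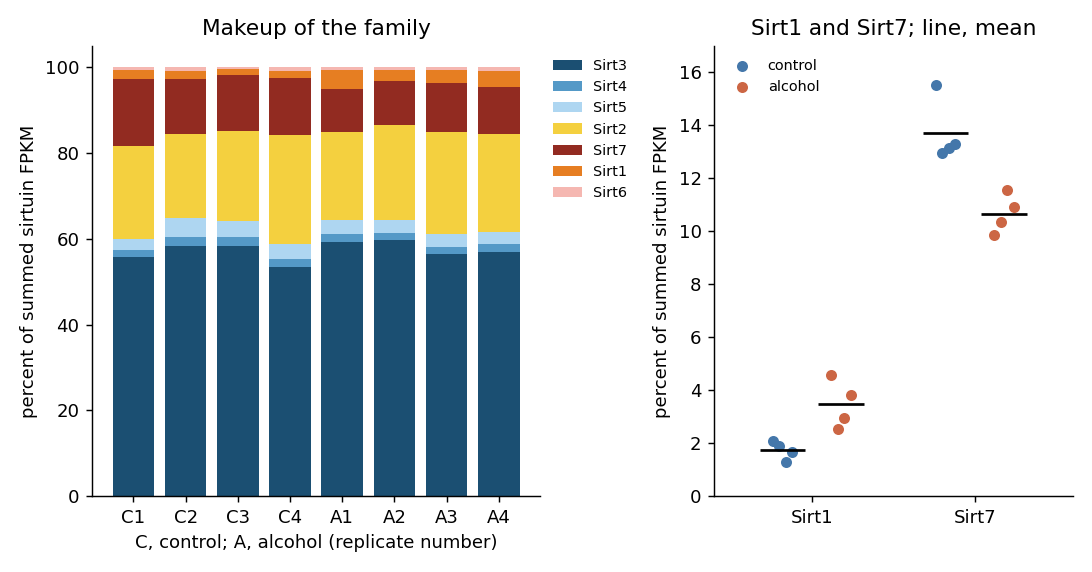
Left, the share of each sirtuin in the summed sirtuin FPKM of each sample (C, control; A, alcohol; percent). Right, the shares of Sirt1 and Sirt7 in each sample with the group mean as a line: Sirt1 goes from a mean of 1.73% to 3.47% and Sirt7 from 13.7% to 10.7%, each without overlap, while Sirt3 holds more than any other member in all 8 samples.

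Within the family Sirt3 made up 56.5 ± 2.31% of the summed sirtuin FPKM in controls and 58.1 ± 1.53% with alcohol (SD, n = 4 per group), and Sirt2 21.9 ± 2.50% and 22.3 ± 1.30%. Sirt1 took 2.08%, 1.89%, 1.30% and 1.65% in controls and 4.58%, 2.52%, 2.97% and 3.82% with alcohol. Sirt7 took 15.5%, 12.9%, 13.1% and 13.3% in controls and 9.86%, 10.3%, 11.6% and 10.9% with alcohol. The mitochondrial share overlapped between the groups, at 61.9 ± 3.01% and 62.9 ± 1.76%. So did the nuclear share, at 16.1 ± 1.47% and 14.8 ± 0.926%, unlike the nuclear sums of FPKM.

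Sirt1 and Sirt7, the 2 sirtuins called on FPKM as deposited, have promoter windows that differ in makeup. RefSeq windows (GRCm38.p6) run from before to just after the annotated start, and all 7 genes matched, Sirt3 and Sirt6 with 2 starts each. Capitals mark CACGTG, the E-box read by clock and MYC family factors, and GGGCGG on either strand, the GC box read by Sp1 family factors. The 2 windows are printed 5′ to 3′ on the gene's strand, Sirt1 at chr10:63338986-63339285 (minus strand) and Sirt7 at chr11:120624965-120625264 (minus strand).
Sirt1 promoter: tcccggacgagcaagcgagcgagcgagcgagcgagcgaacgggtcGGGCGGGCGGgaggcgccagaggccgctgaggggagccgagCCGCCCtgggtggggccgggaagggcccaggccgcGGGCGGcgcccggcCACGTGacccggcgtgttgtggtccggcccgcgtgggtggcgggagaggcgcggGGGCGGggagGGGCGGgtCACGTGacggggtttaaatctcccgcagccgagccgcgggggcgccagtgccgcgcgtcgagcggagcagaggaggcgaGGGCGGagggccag
Sirt7 promoter: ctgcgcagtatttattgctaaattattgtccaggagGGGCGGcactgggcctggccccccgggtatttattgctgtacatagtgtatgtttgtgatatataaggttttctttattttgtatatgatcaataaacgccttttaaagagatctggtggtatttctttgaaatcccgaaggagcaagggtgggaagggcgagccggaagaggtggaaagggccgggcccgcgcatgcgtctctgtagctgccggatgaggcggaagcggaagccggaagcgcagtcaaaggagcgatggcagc
The Sirt1 window held 2 E-boxes, which begin 115 and 43 bases before the start, and 7 GC boxes, 2 of which overlap. Of 32851 windows of the same length 7.15% held at least 1 E-box and 0.594% held 2 or more, and 0.627% had at least as many GC boxes as Sirt1. No E-box was found in the windows of the other 6 sirtuins. The Sirt7 window held 1 GC box, a motif present in 35.7% of all windows. GC content was 79.0% for Sirt1, above 98.6% of windows, and 51.3% for Sirt7, near the median of 52.7%. CpG pairs numbered 47 in the Sirt1 window and 17 in that of Sirt7, against a median of 7. None of the 9 sirtuin windows held TATAAA, a match that 13.6% of all windows have, or TGACGTCA, which 1.79% have. These are matches of letters in these windows and no measure of binding.

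**Figure D5:**
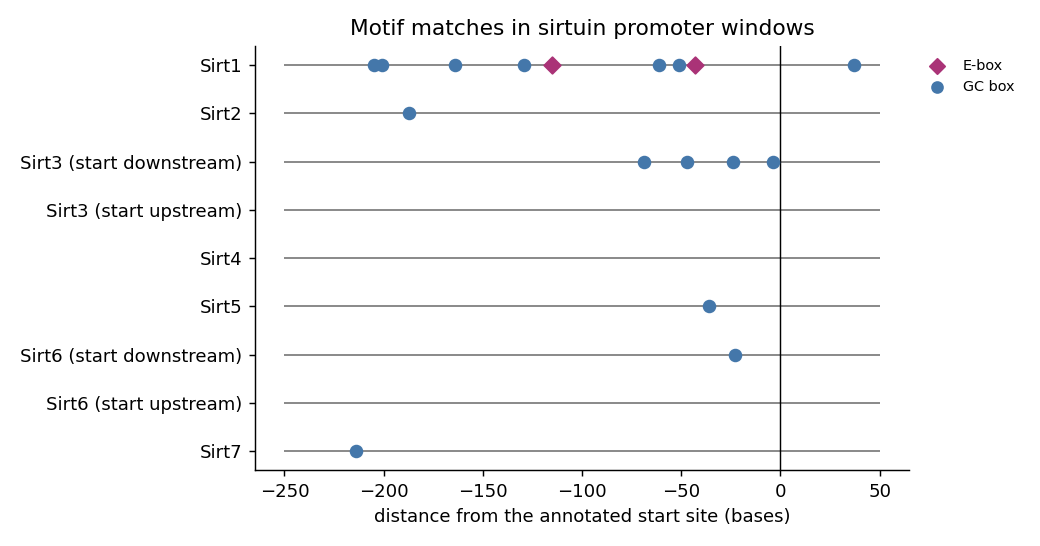
Matches to the E-box (diamonds) and the GC box (circles) in each sirtuin promoter window, by the distance of the first base of the match from the annotated start site in bases, with 1 line per annotated start. Sirt1 holds both E-boxes and 7 GC boxes, the downstream start of Sirt3 holds 4 GC boxes, and the other windows hold 1 or none.

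On GRCm38 (GENCODE M21) all 7 are protein-coding. Sirt1 lies on chromosome 10 from 63319005 to 63381704 and Sirt6 on the same chromosome from 81621785 to 81627797, both on the minus strand. The outer end of Sirt1 is that of 1 long GENCODE transcript, far upstream of the RefSeq start used for the promoter window, where other GENCODE transcripts of Sirt1 begin. Sirt7 lies on chromosome 11 from 120618372 to 120625240 (minus strand), Sirt4 on chromosome 5 from 115478010 to 115484725 (minus strand) and Sirt5 on chromosome 13 from 43365496 to 43395203 (plus strand). Sirt2 (28766735 to 28788661, plus strand) and Sirt3 (140863666 to 140882309, minus strand) lie on chromosome 7. The GENCODE M21 exons of Sirt3 share 12.7% of their 5973 bases with the opposite-strand genes Ric8a and Psmd13. The deposited Sirt3 values rest on a length of 1601 bases, and how much of it lies in the shared part is not known. Psmd13, a proteasome subunit, averaged 29.2 FPKM (control) and 43.0 FPKM (alcohol), and whether the counting used strand is not given in the sources used here, so reads of Sirt3 are uncertain there. Sirt7 shares 124 exon bases with Mafg on the same strand, Sirt1 65 bases with Gm16145 and Sirt2 42 bases with Nfkbib on the other strand.

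By Pearson correlation of log2(FPKM + 1) over the 8 samples, the genes most like Sirt1 were Thoc1 (r = 0.99), Pick1 (r = 0.98) and Zfp120 (r = 0.98). Those most like Sirt7 were Pdcd6 (r = 0.99), Apol7a (r = 0.98) and Rnf34 (r = 0.98). Pdcd6, a calcium-binding protein, stood at 52.7 ± 4.29 and 36.7 ± 3.06 FPKM. The top genes were Rmdn1 for Sirt3 (r = 0.98), Stap1 for Sirt4 (r = 0.98), Zfp511 for Sirt2 (r = 0.97), Nmi for Sirt5 (r = 0.96) and Fam193b for Sirt6 (r = 0.95). Each is the best of 8872 genes searched over samples that share their library and group, so these values describe likeness in these 8 samples only.

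The genes listed for NAD supply include Nadk and Nadk2, kinases that turn NAD into NADP, and the mitochondrial NAD carrier Slc25a51. Of this list, 1 of 10 tested was higher (Slc25a51, limma adjusted p = 0.0465) and 3 were lower with alcohol. Of all tested genes, 44.2% were higher and 13.0% lower. The median log2 change of the list was -0.16, against 0.24 for all tested genes. Over the 4 other planned scalings and the deposited one, 0 to 2 were higher and 1 to 8 lower. The 8 lower came with median-of-ratios and upper-quartile scaling, where 28.3% and 30.0% of all tested genes were lower. On the TPM scale 2 were higher and 1 lower, where 52.7% and 8.82% of all tested genes were. Only 1 was lower without control replicate 3, alcohol replicate 2 or alcohol replicate 4. In those fits 1000 to 1110 of the 9228 tested genes were lower, against 1203 with all samples. None was higher without control replicate 2 or 3 or alcohol replicate 1 or 3, where 3537 to 3821 of all tested genes were higher. Without control replicate 1, 2 were higher, where 4362 of all tested genes were, against 4080 with all samples. Nmrk1, the nicotinamide riboside kinase, fell from 31.4 ± 4.34 to 18.1 ± 1.13 FPKM (limma adjusted p = 0.000313) and the NAD synthetase Nadsyn1 from 7.18 ± 0.653 to 5.59 ± 0.833 FPKM (limma adjusted p = 0.0331, and 0.222 on the TPM scale). Nampt, which makes nicotinamide mononucleotide and was named after its values were seen, stood at 24.0 ± 4.63 and 18.9 ± 2.40 FPKM (limma adjusted p = 0.0741).

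Of the genes that consume NAD or nicotinamide, 2 of 6 tested were higher and none was lower (44.2% and 13.0% of all tested genes), with a median of 0.26. Median-of-ratios scaling, upper-quartile scaling and quantile normalization each gave 1 higher and 1 lower. Of all tested genes, these scalings called 21.9% to 24.6% higher and 24.7% to 30.0% lower. Cd38, an NAD hydrolase, rose from 1.83 ± 0.674 to 5.97 ± 0.681 FPKM (limma adjusted p = 6.23e-05), and the poly(ADP-ribose) polymerase Parp2 from 1.13 ± 0.261 to 1.93 ± 0.270 FPKM (limma adjusted p = 0.00484). Median-of-ratios scaling left Parp2 uncalled (limma adjusted p = 0.0670), and it was not called with upper-quartile scaling or quantile normalization either.

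Of the listed partners and targets of Sirt1, 4 of 14 tested were higher and 3 lower (44.2% and 13.0% of all tested genes), with a median of 0.10. Over the scalings 1 to 4 were higher and 2 to 5 lower. Median-of-ratios and upper-quartile scaling gave 1 higher, where 23.5% and 21.9% of all tested genes were higher. Quantile normalization gave the 5 lower, where 24.7% of all tested genes were lower. Rela, the NF-kB subunit that Sirt1 deacetylates, rose from 9.67 ± 1.37 to 24.1 ± 4.26 FPKM (limma adjusted p = 4.52e-05). Ppara, the fatty acid sensing nuclear receptor, fell from 23.8 ± 4.195 to 9.66 ± 2.86 FPKM (limma adjusted p = 0.000233). Of the substrates of mitochondrial sirtuins, 2 of 17 tested were higher and 4 lower (44.2% and 13.0% of all tested genes), with a median of -0.15. Over the scalings 1 to 3 were higher and 3 to 12 lower. Median-of-ratios and upper-quartile scaling gave 11 and 12 lower, where 28.3% and 30.0% of all tested genes were lower. Quantile normalization gave 5 lower and the TPM scale 3, where 24.7% and 8.82% of all tested genes were lower. The number lower was 7 without control replicate 4, where 1103 of the 9228 tested genes were lower (1203 with all samples). Without control replicate 2, 3 or 4 or alcohol replicate 1 or 3, 1 was higher. In those fits 3537 to 3821 of all tested genes were higher (4080 with all samples). Otc, the urea cycle enzyme that Sirt3 deacetylates, fell from 132 ± 13.4 to 56.8 ± 6.27 FPKM (limma adjusted p = 2.19e-05), and Idh2, another substrate of Sirt3, rose from 13.99 ± 1.94 to 23.7 ± 0.526 FPKM (limma adjusted p = 0.000322). Of the partners and targets of Sirt2, Sirt6 and Sirt7, 5 of 9 tested were higher and 1 lower (44.2% and 13.0% of all tested genes), with a median of 0.44. Median-of-ratios scaling, upper-quartile scaling and quantile normalization each gave 2 higher and 3 lower. Of all tested genes, these scalings called 21.9% to 24.6% higher and 24.7% to 30.0% lower. On FPKM as deposited, 2 were lower without alcohol replicate 1, where 1066 of the 9228 tested genes were (1203 with all samples). The one lower on FPKM as deposited was Pck1, the gluconeogenic enzyme that Sirt2 deacetylates, at 1181 ± 154 and 381 ± 142 FPKM.

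The zinc-dependent deacetylases, which remove acetyl groups without NAD, had 2 of 7 tested genes higher and none lower (44.2% and 13.0% of all tested genes), with a median of -0.08. Median-of-ratios scaling, upper-quartile scaling and quantile normalization each gave 1 higher and 4 lower. Of all tested genes, these scalings called 21.9% to 24.6% higher and 24.7% to 30.0% lower. Hdac5 rose from 3.15 ± 0.435 to 6.67 ± 0.692 FPKM (limma adjusted p = 9.95e-05), and Hdac10 from 2.44 ± 0.429 to 3.42 ± 0.336 FPKM, a call that median-of-ratios scaling did not give (limma adjusted p = 0.346). Of the acetyltransferases, which add the group that sirtuins remove, 7 of 10 tested were higher and 1 lower (44.2% and 13.0% of all tested genes), with a median of 0.43. Over the scalings 1 to 8 were higher and 1 to 2 lower. Without control replicate 4, 2 were lower, where 1103 of the 9228 tested genes were (1203 with all samples). The 8 higher came on the TPM scale, where 52.7% of all tested genes were higher. Median-of-ratios and upper-quartile scaling gave 1 higher, where 23.5% and 21.9% of all tested genes were higher. Crebbp rose from 1.32 ± 0.250 to 2.60 ± 0.283 FPKM (limma adjusted p = 0.000540) and Kat2a from 4.69 ± 0.247 to 7.31 ± 0.777 FPKM (limma adjusted p = 0.000935, and 0.0541 with median-of-ratios scaling).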

How the data were processed

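Messenger RNA from 4 control and 4 alcohol samples was sequenced after column extraction and SMARTER library preparation, per the labels' protocols. The authors deposited 1 table of FPKM per gene symbol and sample. The submitters' processing notes name the builds GRCm38 and mm10; the sources used here do not give the aligner, the counter, the annotation or strand use. FPKM is scaled to each library's total, so a few very abundant genes can shift all others. The deposited FPKM values are whole multiples of 1 read, and whole reads were recovered for 21048 of 21049 genes (99.995%, tolerance 1e-05 of a read).

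Groups were compared on log2(FPKM + 1), computed from the deposited values, with limma 3.58.1 in R 4.3.3 (empirical Bayes with a variance trend). Genes whose mean reached 1 FPKM entered, and p-values were adjusted over all of them by Benjamini-Hochberg. Log2 changes on this scale understate changes of low genes. For single genes, all 70 assignments of samples to groups gave an exact permutation p (2-sided). The fit and the recovery of reads were tested on simulated data. Alternatives were other pseudocounts and minimums, no variance trend, 4 other planned scalings, the replicate number as a block, and leaving out each library. Median-of-ratios scaling on tested genes, scaling to reads outside the 100 most abundant genes, and voom weights in limma on the recovered reads were added after seeing the data.

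The sirtuins and gene lists were chosen with earlier results of these data known. The text names all 7 sirtuins, the 2 called genes with the smallest p of each other list, and, for each sirtuin, genes among the 3 with the highest correlation, leaving out sirtuins and predicted genes. Of the list for NAD supply, Nampt, Nadk, Nadk2 and Slc25a51 were also named. Promoter and miRNA sequences came from RefSeq (GRCm38.p6) and transcripts from GENCODE M21.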

Additional observations from a re-analysis of the deposited data

Results flagged for a closer look

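Sirt2 stood at 16.9 FPKM in alcohol replicate 1, far below the other 3 alcohol samples at 20.91, 20.95 and 20.95 FPKM, a gap of 0.988 of the group's range. It was the only one of the 14 groups examined (7 sirtuins in 2 conditions) in which an end sample stood apart by Dixon's criterion, and chance flags about 1 in 20 groups. Without that sample the log2 change of Sirt2 was -0.11 (limma adjusted p = 0.365), against -0.18 with it.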

How the results depend on the processing

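Sirt7 was called lower in the main analysis and in all 21 alternatives, and Sirt1 was higher in all and called in 19 of 22. Median-of-ratios scaling gave 2170 genes higher and 2616 lower, 0 sirtuins higher and 5 lower, with log2 changes of 0.30 for Sirt1 (not called), -0.51 for Sirt2, -0.51 for Sirt3, -0.45 for Sirt4 and -0.56 for Sirt5, and medians of -0.23 for nuclear and -0.51 for mitochondrial sirtuins. Quantile normalization gave 2270 genes higher and 2275 lower, 0 sirtuins higher and 5 lower, with 0.21 for Sirt1 (not called), -0.36 for Sirt2, -0.55 for Sirt4, -0.62 for Sirt5 and -0.30 for Sirt6 (limma adjusted p = 0.0493), and medians of -0.30 and -0.55. Upper-quartile scaling gave 2021 genes higher and 2771 lower, 0 sirtuins higher and 5 lower, with 0.27 for Sirt1 (not called), -0.55 for Sirt2, -0.55 for Sirt3, -0.48 for Sirt4 and -0.59 for Sirt5, and medians of -0.25 and -0.55. As reported, 4080 genes were higher and 1203 lower.

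Of the alternatives chosen after seeing the data, median-of-ratios scaling on tested genes gave 2386 genes higher and 2446 lower and 5 sirtuins lower, with -0.47 for Sirt2, -0.47 for Sirt3, -0.43 for Sirt4 and -0.53 for Sirt5, and medians of -0.22 and -0.47. Scaling to the reads outside the 100 most abundant genes gave 3 sirtuins lower, with -0.31 for Sirt2 and -0.32 for Sirt4. The nuclear median was -0.22 with a pseudocount of 0.1 and -0.25 with voom on recovered reads, and neither setting adds 1 FPKM to low values. The voom fit called 4088 genes higher and 1188 lower. Why the scalings and these 2 settings differ from the main analysis was not tested.

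Leaving out 1 library at a time gave 1 to 3 sirtuins lower, -0.31 to -0.18 for Sirt4 and -0.44 to -0.16 for Sirt5. Calls of sirtuins changed only without control replicate 1, while the counts over all tested genes ran from 3537 to 4362 higher and 1000 to 1278 lower. Without alcohol replicate 2 Sirt1 was at 0.62 (limma adjusted p = 0.00435) and Sirt7 at -0.55 (limma adjusted p = 0.00368), and without alcohol replicate 4 they were at 0.48 (limma adjusted p = 0.0202) and -0.56 (limma adjusted p = 0.00336).

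The replicate numbers were not taken to pair the samples, since nothing in the labels ties them and 1 of the 4 correlations was under 0.1. Same-numbered samples correlated at 0.349, 0.216, 0.0706 and 0.280 in their deviations from the group means, all positive, and other pairs at -0.425 to 0.290. By this hint from the data alone, 4 of 8 samples correlated best with their own number. With the replicate block 4307 genes were higher and 1380 lower, and Sirt1 (limma adjusted p = 0.00530) and Sirt7 (limma adjusted p = 0.00209) remained the called sirtuins. Of the counts in the other gene lists, 79 alternative values moved by over 1.5 times and 215 did not. Depth limits Sirt6 most, at 47 to 83 reads per library.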
